A study of Oryza sativa Japonica Group with 6 samples.

Results

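The transcripts examined here were those of ubiquitin conjugation and of F-box proteins, in the submerged coleoptile of the rad mutant of rice and of its wild type. A cDNA was taken as a member when the array's own description of it named ubiquitin, an F-box, a RING finger, RING zinc finger or RING-H2 protein, SKP1, a cullin, SUMO, COP9 or CSN. Descriptions that also named the proteasome, a ribosomal protein or the anaphase-promoting complex were left out. This gave 134 of the 21495 cDNA probes on the array, with 88 different descriptions. Of these members 3 carry the same description of a sorghum serine/threonine kinase and matched only because its clone is called cSNFL2, so that they name no ubiquitin or COP9 protein. They are kept in the counts and described apart.

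Both genotypes were of the cultivar Kinmaze, and seeds of both had germinated in bottles of deionized water, under submergence. One was the rad mutant, which the series title describes as reduced in alcohol dehydrogenase (ADH) activity, and the other was the wild type. The coleoptile, the sheath around the first leaf, was cut from 8 µm frozen sections by laser microdissection. Mutant and wild-type RNA were hybridised together on 6 two-colour arrays, in 3 replicates that were each run in both dye orientations. The labels give neither the lesion in rad, nor the age of the seedlings, nor how many coleoptiles were pooled. Nothing in them says that the replicates were separate cultures, so the p-values reflect variation among these preparations, part of which may be technical.

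Ubiquitin is a small protein that is attached to other proteins to change their fate, most often to send them to the proteasome for degradation. An activating enzyme (E1) charges it, a conjugating enzyme (E2) carries it, and a ligase (E3) places it on the substrate. Many plant ligases are single RING finger proteins, and others are SCF complexes, in which a cullin holds a RING protein and the adaptor SKP1, and an F-box protein on SKP1 picks the substrate. Deubiquitinating enzymes remove or trim ubiquitin, the COP9 signalosome strips an activating modifier from cullins, and SUMO is a related modifier with enzymes of its own. In plants, F-box and RING proteins act in responses to auxin and other hormones, to light and to pathogens.

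In each channel of each array, 90.4% to 95.7% of all probes were well above background. Of the 134 members 123 were tested; 7 were too dim and 4 had an outlier spot on an array. The tested members were well above background in both genotypes on all 6 arrays in 117 cases. Some markers of other tissues moved as well. The counts are to be read beside all probes tested, of which limma called 14.6% higher and 10.1% lower. Of 46 tested cDNAs of photosynthetic proteins 2 were called higher and 15 lower in rad, and the summed intensity over all 51 cDNAs of that list was 48700.2 to 51303 in rad against 51630 to 52513 in wild type. Of 6 tested root-specific cDNAs 0 were higher and 2 lower, with sums of 24793 to 62497 in rad against 60209 to 77371 in wild type. Replicate 3 stood apart in that list, whose median log2 ratio was -0.65, -0.66 and 0.01 in replicates 1, 2 and 3. None of the 13 tested cDNAs of seed storage proteins was called by limma, with sums of 3611 to 3791 in rad against 4018 to 4123 in wild type. For vascular and secondary-wall proteins such as laccases 1 of 15 was higher and 2 were lower, with sums of 12167 to 15326 in rad against 14003 to 15435 in wild type. Every photosynthetic cDNA, and all but 1 cDNA of each other list, was well above background on at least one array. The part of these tissues in the ratios below was not tested, and no marker list particular to the coleoptile was used. In such tissue samples, fewer cells of a type and less RNA per cell cannot be told apart.

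The members that changed were mostly higher in rad. Polyubiquitin and a ubiquitin-like protein, the E2 OsUBC5b, a SKP1 adaptor, a COP9 subunit and many RING finger proteins rose, whereas few members fell and none of these by as much as 2-fold. With limma and Benjamini-Hochberg adjustment over all 19947 probes tested, 35 of 123 members were called higher (28.5%) and 6 lower (4.88%), against 14.6% higher and 10.1% lower among all probes, or 24.7% in either direction. The median log2 ratio of the members was 0.06, against -0.01 for all probes tested, and it was 0.07, 0.07 and 0.04 in replicates 1, 2 and 3. At least a 2-fold rise was called for 6 members (4.88%), against 1.79% of all probes, and at least a 2-fold fall for 0 members, against 0.822%. All 3 rad intensities lay above all 3 wild-type intensities for 38 members (30.9%, against 16.7% of all probes), and below them for 7 (5.69%, against 12.5%). Among roles with at least 4 tested cDNAs, limma called 60% of the ubiquitin group, 43.3% of RING, 42.9% of F-box, 40% of E1 and 31.6% of E2 cDNAs. It called 25% for SKP1, 20% for COP9, 18.8% for deubiquitinating enzymes, 12.5% for cullins and 0% for SUMO, against 24.7% of all probes. Roles follow the words of the descriptions, so the share of a role holds only for cDNAs so described. These shares describe the list and were not tested, since the members were chosen with earlier results known. Without replicate 1 the calls numbered 14 higher and 1 lower, and without replicate 2 they numbered 12 and 1, whereas they were 34 and 7 without replicate 3.

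**Figure D1:**
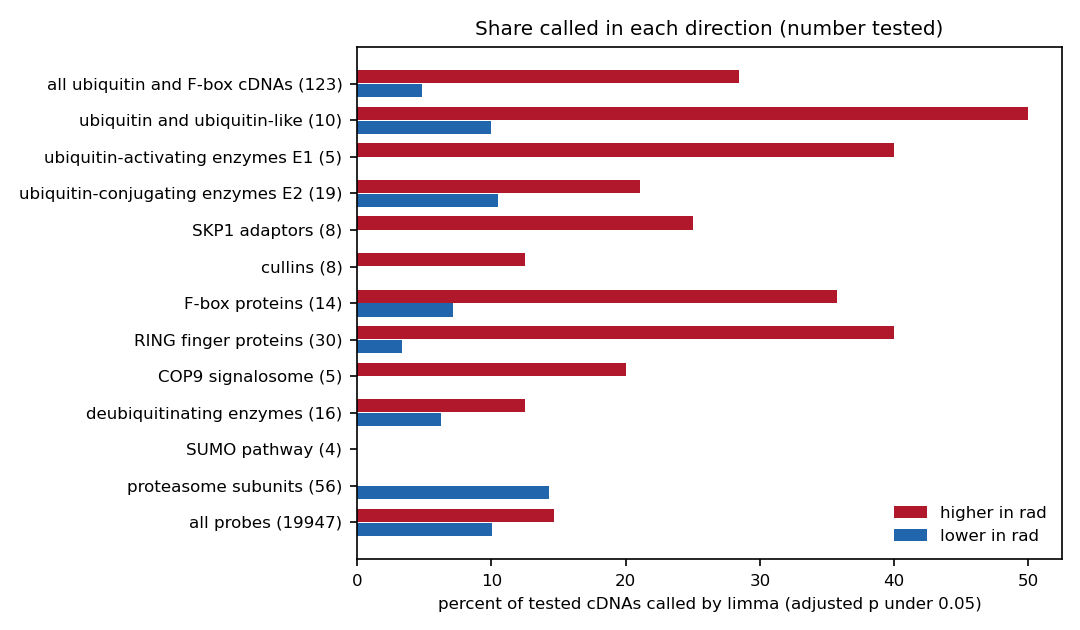
Percent of tested cDNAs that limma called higher (red) or lower (blue) in rad, for all members, for each role with at least 4 tested cDNAs, for the proteasome and for all probes, with the number tested in parentheses. The members as a whole show 28.5% higher and 4.88% lower, against 14.6% and 10.1% of all probes, and the ubiquitin group has the longest red bar.

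**Figure D2:**
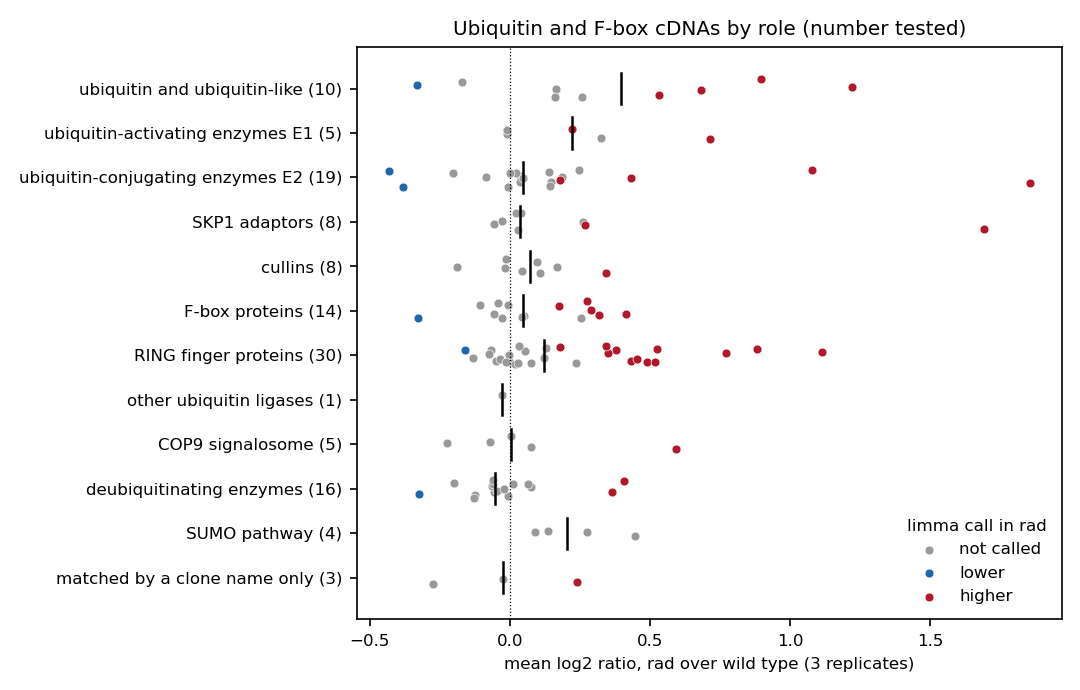
Mean log2 ratio of rad over wild type (horizontal axis) of each tested cDNA, in rows by role. Each point is a cDNA, coloured by its limma call, and black bars mark the median of a role. The 6 points at 1 or more belong to 4 roles, with 2 each among E2 enzymes and ubiquitin and 1 each among SKP1 and RING proteins, and no cDNA lies as far to the left as -0.5.

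The cDNAs described as ubiquitin or ubiquitin-like proteins were among the groups with the most calls. Of these 10 cDNAs 5 were higher and 1 was lower, with a median of 0.40. Polyubiquitin genes encode chains of ubiquitin units that are cut into single molecules, and 4 of the 6 polyubiquitin cDNAs rose. A cDNA of rice rub1 polyubiquitin (AK061956) had normalized intensities of 51501, 52148 and 52731 in rad against 19209, 22668 and 25641 in wild type (replicates 1, 2 and 3). Its rad values lay above the wild-type values in every replicate, at 2.33-fold on average (1.22 ± 0.19, here and below the mean log2 ratio of rad over wild type with its SD, n = 3, adjusted p = 0.00453). That probe was saturated in rad on the 3 arrays with rad in Cy5, where the log2 ratio was 1.17, 0.93 and 0.89, and unsaturated on the 3 arrays with rad in Cy3, where it was 1.68, 1.47 and 1.19. A second rub1 cDNA (AK067024) had intensities of 1271, 1030.3 and 811 in rad against 721, 632 and 565 in wild type, which do not overlap, and rose by 0.68 ± 0.15 (adjusted p = 0.00765). Rice poly-ubiquitin AK058319 had intensities of 3926, 5011 and 4669 in rad against 2528, 2462 and 2296 in wild type and rose 1.86-fold (0.89 ± 0.22, adjusted p = 0.00850). Its smallest rise was in replicate 1, where the ratio was 0.64. The last of the 4 (AK101853), whose best match is a fungal poly-ubiquitin, rose by 0.53 ± 0.21 (adjusted p = 0.0222), with log2 ratios of 0.68, 0.63 and 0.29. A pair of cDNAs like polyubiquitin 2 of Antarctic hair grass did not pass the test, at 0.26 ± 0.18 (AK099513) and -0.17 ± 0.14 (AK062354).

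Ubiquitin-like proteins moved both ways. A cDNA like the Arabidopsis ubiquitin-like protein At5g42300 (AK058725) had intensities of 4506, 6845 and 5609 in rad against 2362, 2472 and 2336 in wild type, so that every rad value stood above every wild-type value. It rose 2.33-fold (1.22 ± 0.27, adjusted p = 0.00670). In contrast, a cucumber-like ubiquitin-like protein (AK062527) fell by 0.33 on the log2 scale (SD 0.04) (adjusted p = 0.00925). It was lower in rad within each replicate, at -0.36, -0.34 and -0.29, although its intensities of 632, 494 and 523 in rad against 811, 626 and 638 in wild type overlap between the genotypes. A pair of cDNAs described as putative ubiquitin proteins (AK100656 and AK065246) read 0.17 ± 0.09 and 0.16 ± 0.15 and did not pass. Without replicate 1 the call of AK062527 was lost (adjusted p = 0.0572), and without replicate 2 so were the calls of AK062527, AK067024 and AK058319 (adjusted p = 0.0771, 0.0543 and 0.0535). AK101853 was called under 15 of 17 alternatives, the exceptions both leaving out a replicate.

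Of 5 tested cDNAs described as ubiquitin activating enzymes, 2 were higher and 0 were lower. The 3 among them that match the wheat E1 were not called, and both rises are of cDNAs matched to Arabidopsis loci by description alone, so that they are not given here as a rise of the ubiquitin E1. A cDNA described as a putative ubiquitin activating enzyme like At2g21470 (AK072668) had intensities of 4641, 4355 and 4384 in rad against 2579.9, 2749 and 2828 in wild type, with no overlap. It rose 1.64-fold (0.71 ± 0.12, adjusted p = 0.00548). A cDNA like the activating-enzyme-like protein At4g24940 (AK111924) rose by 0.22 ± 0.06 (adjusted p = 0.0251). Of the wheat-like E1 cDNAs, AK104898 read -0.01 ± 0.06 and AK111781 read -0.01 ± 0.04. Another of that description (AK074007) read 0.77, 0.38 and -0.17 in replicates 1, 2 and 3, and its mean of 0.33 ± 0.47 did not pass (adjusted p = 0.287). It was high in rad in replicates 1 and 2 and slightly low in replicate 3, and without replicate 3 it was called higher (0.57, adjusted p = 0.0391). The root markers had their median near 0 in replicate 3, and a link between both was not tested. Another cDNA described as an E1 (AK067422) had an outlier spot, was not tested and read 0.88, 0.39 and 0.17. AK111924 lost its call when any single replicate was left out (adjusted p = 0.0780, 0.139 and 0.0667 without replicates 1, 2 and 3) and on the arrays with rad in Cy5, where it read 0.13 (adjusted p = 0.0878).

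Among the conjugating enzymes 4 of 19 tested cDNAs were higher and 2 were lower (31.6% called, against 24.7% of all probes), with a median of 0.05. The rice enzyme OsUBC5b (AK066232) showed the largest rise of all members. Its intensities were 6937, 8993 and 7823 in rad against 2129, 2185 and 2212 in wild type, so that the lowest rad value was far above the highest wild-type value. The rise was 3.62-fold (1.86 ± 0.17, adjusted p = 0.00273). OsUBC5a (AK063826), the other E2 named as a rice UBC5 on the array, read -0.01 ± 0.09 (adjusted p = 0.925), with overlapping intensities of 103, 105 and 112 in rad against 109.7, 106 and 105 in wild type. Their names match the genes LOC4328940 (OsUBC5b) and LOC4327162 (OsUBC5a) of the RefSeq gene table. This pair was set side by side after the values were seen, and the difference between both cDNAs was not tested.

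A cDNA described as a putative conjugating enzyme like Arabidopsis At2g36060 (AK066799) had intensities of 435, 557 and 519 in rad against 241, 228 and 243 in wild type. These again do not overlap, and the cDNA rose 2.11-fold (1.08 ± 0.22, adjusted p = 0.00603). Another like At1g53020 (AK067926) rose by 0.43 ± 0.05 (adjusted p = 0.00662), with 0.39, 0.42 and 0.49 in replicates 1, 2 and 3. The smallest of the 4 rises was that of a cDNA like At2g33770 (AK103631), at 0.18 ± 0.06 (adjusted p = 0.0411). This value differed between dye orientations, with -0.02 on the arrays with rad in Cy5 and 0.38 on those with rad in Cy3, and with the replicate block on 6 arrays it was not called (adjusted p = 0.178). One of the enzymes that fell was UBC20 (AK105320). UBC20 of Arabidopsis belongs to the E2-C class, whose members work with the anaphase-promoting complex in the cell cycle. Its intensities were 112, 99.1 and 117 in rad against 153, 130.0 and 159 in wild type, with every rad value below every wild-type value, and it fell by 0.43 on the log2 scale (SD 0.03), adjusted p = 0.00587. COP10, an E2 variant that represses light responses in Arabidopsis, read 0.15 ± 0.11 (AK111080, adjusted p = 0.128) and did not pass. The size for UBC20 depended on the background correction, at -0.77 with no offset and -0.83 from the scanner's processed signals. AK103631 lost its call without replicate 1, 2 or 3 (adjusted p = 0.0976, 0.195 and 0.113), AK067926 lost it without replicate 2 (0.0540), and AK067926 read 0.27 with rad in Cy5 alone.

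**Figure D3:**
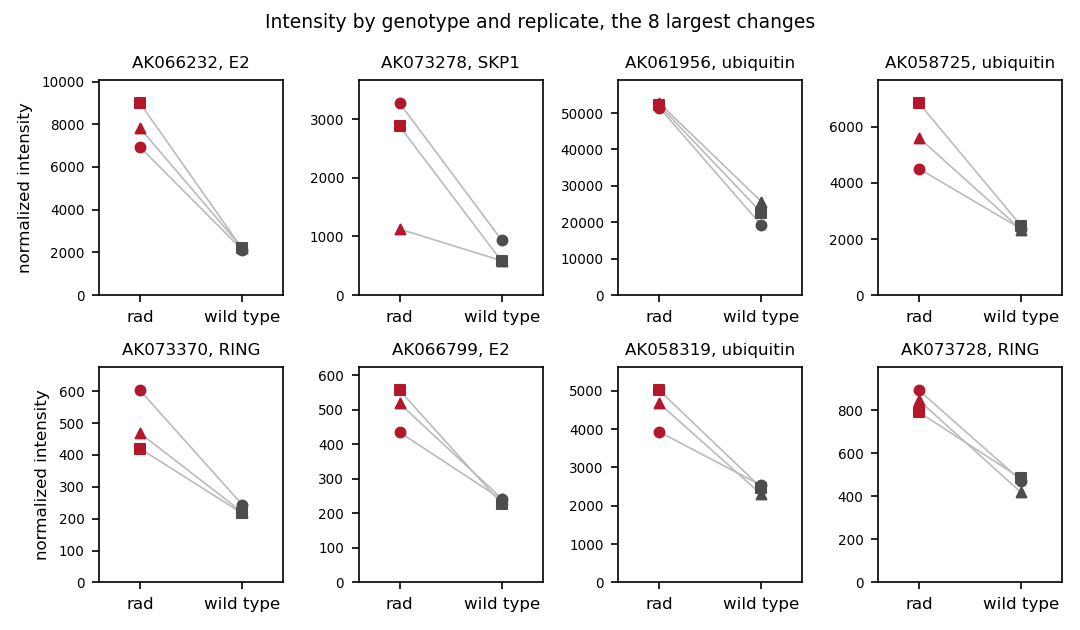
Normalized intensity (vertical axes, from 0) in rad (left, red) and wild type (right, grey) for the 8 called cDNAs with the largest mean log2 ratios. Circles, squares and triangles are replicates 1, 2 and 3, joined by lines, and axes differ between panels because brightness is not comparable between probes. Every rad point stands above every wild-type point in each panel, and replicate 3 of the SKP1 cDNA AK073278 lies closest to wild type in rad.

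SKP1 is the adaptor between cullin and F-box protein, and this group holds SKP1 itself and partners named for binding it. Of 8 cDNAs 2 were higher and 0 were lower (25% called, against 24.7% of all probes), with a median of 0.04. One SKP1 cDNA, like that of alfalfa (AK073278), had intensities of 3273, 2877 and 1126 in rad against 935, 575 and 586 in wild type. Its rad values all exceeded the wild-type values, but the rise was uneven, at 1.81, 2.32 and 0.94 in replicates 1, 2 and 3. The mean was 1.69 ± 0.70, or 3.23-fold (adjusted p = 0.0202). The other SKP1 cDNAs were AK064628 (0.26 ± 0.24), AK102131 (-0.03 ± 0.08), AK070953 (0.02 ± 0.02) and AK107960 (0.04 ± 0.03), none of which passed. AK107960 was dim, and its wild-type signal was well above background on only 3 of the 6 arrays. AK064628 resembled AK073278 in part, with 0.43, 0.37 and -0.01 in the 3 replicates. As in the root markers, the differences of both were larger in replicates 1 and 2 than in replicate 3, and the part of root tissue was not tested. Replicate 3 was also the closest to 0 in 17 of the 41 called members, so this order is not particular to these cDNAs. Among the partners SKIP2 (AK071138) rose by 0.27 ± 0.09 (adjusted p = 0.0252), whereas SKIP4 (AK062579) and SKIP6 (AK071934) read -0.06 ± 0.04 and 0.03 ± 0.06. The call of AK073278 was lost without replicate 1 (adjusted p = 0.122) and without replicate 2 (0.0694). SKIP2 lost its call without replicate 1, 2 or 3 (adjusted p = 0.0646, 0.133 and 0.0627) and with rad in Cy5 alone (0.0613), and it read 0.54 from the processed signals.

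Among cullins, the scaffolds of these ligases, 1 of 8 tested cDNAs was higher and 0 were lower (12.5% called, against 24.7% of all probes). The ratios ranged from -0.19 to 0.34. The one that rose was like cullin 3 (AK069061), a scaffold that works with BTB proteins in place of SKP1 and F-box proteins. Its intensities were 537, 463 and 460.0 in rad against 414, 374 and 362 in wild type, with no overlap, and the rise was 0.34 ± 0.03 (adjusted p = 0.00821). The remaining cullin 3 cDNAs read 0.10 ± 0.08 (AK066234) and 0.11 ± 0.10 (AK072402). A set of 4 cDNAs like pea cul1 ranged from -0.19 (AK064940) to 0.17 (AK064133), and a cullin like At5g46210 (AK059186) read -0.02 ± 0.05. AK069061 was no longer called when replicate 1 (adjusted p = 0.0526) or replicate 2 (0.0610) was left out.

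F-box proteins choose the substrates of SCF ligases. Of 14 cDNAs whose description names an F-box, 5 were higher and 1 was lower, and all these changes were under 1.5-fold in size. TIR1, the auxin receptor of Arabidopsis, was represented by a pair of poplar-like cDNAs. One (AK073912) had intensities of 978, 933 and 929 in rad against 785, 746 and 748 in wild type. Rad was above wild type by nearly the same step in each replicate (0.32, 0.32 and 0.31), and the rise was 0.32 ± 0.01 (adjusted p = 0.00825). The step was not the same in both dye orientations, at 0.14 with rad in Cy5 and 0.49 with rad in Cy3. The other (AK059536) read 0.52, 0.15 and 0.10 and did not pass (0.26 ± 0.23, adjusted p = 0.137). ORE9, which acts in leaf senescence in Arabidopsis, also had a pair of cDNAs. AK107102 rose by 0.28 ± 0.05 (adjusted p = 0.0148), with intensities of 578, 590.3 and 555 in rad against 489, 468 and 467 in wild type. AK065478 read -0.11 ± 0.10 and did not pass (adjusted p = 0.215).

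The largest F-box rise was that of a cDNA like human FBX3 (AK068085), at 0.42 ± 0.13 (adjusted p = 0.0170). A cDNA like AtFBL14 (AK068929) rose by 0.29 ± 0.07 (adjusted p = 0.0162), while the other 4 of that description lay between -0.06 (AK065364) and 0.05 (AK073020). The last rise was that of AK070881, like At5g45360, at 0.18 ± 0.05 (adjusted p = 0.0411), which was called under 10 of 17 alternatives. The 1 F-box cDNA that fell was like AtFBW2 (AK070008), with intensities of 585, 601 and 600.3 in rad against 752, 761 and 728 in wild type. Every rad value lay below every wild-type value, and the fall was 0.33 on the log2 scale (SD 0.04), adjusted p = 0.00982. Neither of the other AtFBW2-like cDNAs passed, at -0.04 ± 0.04 (AK069370) and -0.03 ± 0.06 (AK107806). Without replicate 1 or 2 the calls of AK073912, AK107102, AK068085, AK068929 and AK070008 were lost, with adjusted p from 0.0525 to 0.103, and that of AK073912 was also lost on the arrays with rad in Cy5 (0.0870).

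RING finger proteins formed the largest group, in which 12 of 30 tested cDNAs were higher and 1 was lower, with a median of 0.12. The largest rise belonged to a chickpea-like RING finger protein (AK073370). Its intensities were 603, 420.0 and 468 in rad against 244, 217 and 221 in wild type, so that the genotypes do not overlap, and it rose 2.16-fold (1.11 ± 0.18, adjusted p = 0.00470). Next came a cDNA like a RING finger protein of Lotus japonicus (AK073728), with 892, 791 and 845 in rad against 473, 483 and 418 in wild type. It rose 1.84-fold (0.88 ± 0.16, adjusted p = 0.00548), and a second cDNA of that description (AK073342) rose by 0.45 ± 0.16 (adjusted p = 0.0189). A rice RRF1 cDNA (AK108311), for RING finger 1, rose by 0.77 ± 0.28 (adjusted p = 0.0163), with 0.84, 0.47 and 1.01 in replicates 1, 2 and 3. None of the other 3 RRF1 cDNAs passed, and they read between -0.01 (AK059974) and 0.12 (AK108851).

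Smaller RING rises followed. Of 6 tested cDNAs like At1g32340, AK063313 rose by 0.52 ± 0.06 (adjusted p = 0.00521), AK058695 by 0.52 ± 0.03 (adjusted p = 0.00452) and AK069584 by 0.35 ± 0.07 (adjusted p = 0.0117). The other 3 of that description, AK102739 (0.23 ± 0.15), AK067014 (0.13 ± 0.02) and AK102500 (0.00 ± 0.01), did not pass. For AK058695 the replicates gave 0.55, 0.52 and 0.49, and the intensities were 833, 676 and 725 in rad against 568, 473 and 515 in wild type. Both cDNAs like At3g26730 rose as well, at 0.43 ± 0.10 (AK058519) and 0.38 ± 0.12 (AK068618). The remaining rises were AK071853 at 0.49 ± 0.14, AK065316 at 0.34 ± 0.17 and AK102332 at 0.18 ± 0.06. Of the called RING cDNAs not named by rule, AK102332 was called under 9 of 17 alternatives, AK065316 under 14, and AK073342, AK069584, AK058519, AK068618 and AK071853 under 15 or 16, these last losing the call only where a replicate was left out. The 1 RING cDNA that fell, AK100603, shares with AK071853 a description like At3g61460. It fell by 0.16 on the log2 scale (SD 0.01) and was dim, with intensities of 107, 90.3 and 96.4 in rad against 119, 101 and 107 in wild type that overlap between the genotypes. Its call (adjusted p = 0.0350) was lost under 8 of 17 alternatives, among them the omission of replicate 1, 2 or 3 (adjusted p = 0.114, 0.208 and 0.0899), each dye orientation alone (0.254 with rad in Cy5 and 0.0758 with rad in Cy3) and the replicate block (0.0629). It read -0.36 from the processed signals. For AK108311 the call was lost without replicate 1 (adjusted p = 0.104), and the processed signals gave 1.22.

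RING-H2 proteins that are named ATL in their description showed no called change among the 2 cDNAs tested. An ATL4-like cDNA (AK063488) read 0.17, -0.12 and 0.05 in replicates 1, 2 and 3, and an ATL6-like cDNA (AK109591) read 0.15, 0.02 and -0.27. These values scattered around 0, with adjusted p of 0.762 and 0.817. Both cDNAs were dim, well above background on only 4 or 5 of the 6 arrays per genotype. With no offset AK063488 read 0.27 and AK109591 -0.01, neither of them called. A second cDNA of each was too dim to test. SINAT5, a RING ligase that acts on auxin signalling in Arabidopsis, read 0.02 ± 0.02 (AK107155) and did not pass. The other 8 RING cDNAs that did not pass had mean ratios between -0.13 (AK111136) and 0.12 (AK072797). Of the ligases outside these groups, an animal-like E3A ligase (AK110355) read -0.03 ± 0.04, and the other had an outlier spot.

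**Figure D4:**
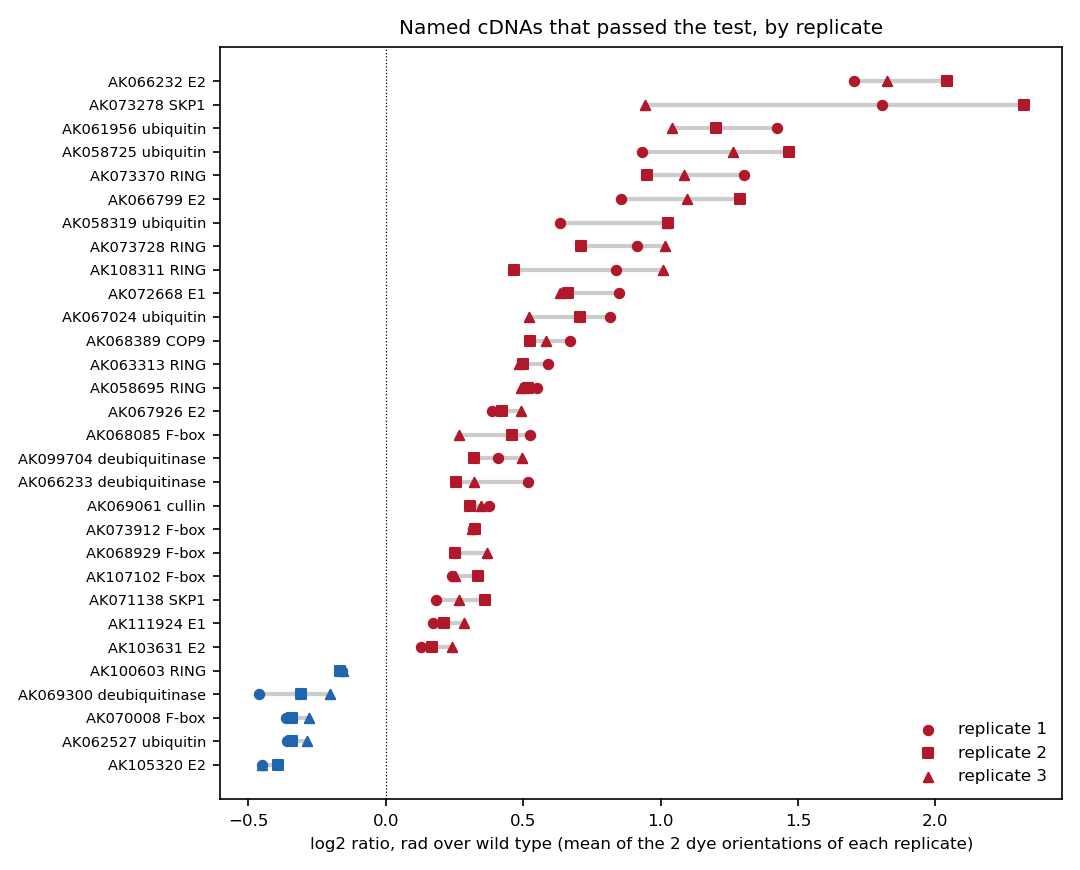
Log2 ratio of rad over wild type in each replicate (horizontal axis; circles, squares and triangles for replicates 1, 2 and 3, each the mean of both dye orientations) for the named cDNAs that passed the test, sorted by their mean. Grey lines span the replicates. The called kinase cDNA and the E2 cDNA not reported here are left out of the plot. All points of a row lie on one side of 0, the widest row is the SKP1 cDNA AK073278, and the falls reach less far from 0 than the upper rises.

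The COP9 signalosome, which acts on cullins, had 1 of 5 cDNAs higher and 0 lower (20% called, against 24.7% of all probes). A cDNA like subunit CSN6B (AK068389) had intensities of 4229.9, 4037 and 4481 in rad against 2658, 2805 and 2994 in wild type. Rad exceeded wild type in all replicates, by 0.67, 0.53 and 0.58, and the rise was 1.51-fold (0.59 ± 0.07, adjusted p = 0.00503). Another subunit 6 cDNA (AK106674) read 0.10, -0.80 and 0.03 and did not pass, with its one clear departure from 0 in replicate 2. CSN4 (AK071413) read 0.00 ± 0.07, CSN7 (AK058214) 0.07 ± 0.17 and CSN8 (AK061355) -0.07 ± 0.15.

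Of the deubiquitinating enzymes 2 of 16 cDNAs were higher and 1 was lower, or 18.8% called against 24.7% of all probes. Their median was -0.05, and 11 of 16 ratios were below 0. UBP16 (AK099704) rose by 0.41 ± 0.09 (adjusted p = 0.0103), with intensities of 585, 457 and 571 in rad against 441, 366 and 405 in wild type that do not overlap. UBP6 (AK066233), which binds the proteasome in Arabidopsis, rose by 0.37 ± 0.14 (adjusted p = 0.0228), with 0.52, 0.26 and 0.32 in replicates 1, 2 and 3. UBP21 (AK069300) fell by 0.32 on the log2 scale (SD 0.13), adjusted p = 0.0282, with intensities of 294, 308 and 338 in rad against 405, 382 and 389 in wild type. The UBP12 cDNAs read -0.12 ± 0.15 (AK059573) and -0.06 ± 0.12 (AK058717), and UBP22 (AK100969) read -0.20 ± 0.21. UBP14 (AK103230), which takes free ubiquitin chains apart in Arabidopsis, read -0.02 ± 0.02. Without replicate 1 all 3 calls were lost (adjusted p = 0.0675 for AK099704, 0.0635 for AK066233 and 0.0860 for AK069300), and likewise without replicate 2 (0.0502, 0.0757 and 0.130). UBP6 read 0.14 with median centring in place of loess (adjusted p = 0.175), and its call was lost with rad in Cy3 alone (0.0627).

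The SUMO group holds only cDNAs whose description names SUMO, and any SUMO enzyme described in other words would lie in another role. In this group limma called 0 of 4 cDNAs, although all 4 ratios were above 0 and 1 had an unadjusted p under 0.05. The SUMO-1 cDNA AK058869 had intensities of 12436, 12930.5 and 15533 in rad against 10554, 11621 and 11456 in wild type. The genotypes do not overlap, and its mean of 0.28 ± 0.15 just missed the threshold (adjusted p = 0.0505). AK062434, of the same description, read 0.80, 0.56 and -0.01 in replicates 1, 2 and 3. It was high in rad in replicates 1 and 2 alone, did not pass (0.45 ± 0.42, adjusted p = 0.134) and was called without replicate 3 (0.68, adjusted p = 0.0138). The root markers were low in rad in replicates 1 and 2, and a link between both was not tested. The third SUMO-1 cDNA (AK069668) read 0.09 ± 0.02 (adjusted p = 0.136), and a SUMO-specific protease (AK061799) 0.14 ± 0.11 (adjusted p = 0.149). AK058869 was called under 5 of 17 alternatives, among them the replicate block (adjusted p = 0.00389), where AK062434 and AK061799 were called too (0.0245 and 0.0438). AK069668 was called by normexp with no offset (adjusted p = 0.0380) and from both forms of the scanner's values.

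The 3 kinase cDNAs matched by their clone name read 0.24 ± 0.12 (AK112043, called higher, adjusted p = 0.0495), -0.02 ± 0.03 (AK111675) and -0.27 ± 0.23 (AK111752). The call of AK112043 was lost under 10 of 17 alternatives, among them the omission of replicate 1, 2 or 3 (adjusted p = 0.0582, 0.223 and 0.122) and the replicate block (0.0751, where AK111752 was called lower at 0.0290), and it read 0.06 with rad in Cy5 and 0.42 with rad in Cy3. Without these kinases 34 of 120 members were higher and 6 lower, with a median of 0.06.

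Descriptions on this array are best matches, so that several cDNAs can carry one name. Of the tested members, leaving out the kinases, 59 shared a description with at least one other, in 22 sets of up to 6 cDNAs. The span between the lowest and the highest mean ratio of a set had a median of 0.34. Every cDNA was called higher in 3 sets, namely rub1 polyubiquitin, the RING protein like that of Lotus and the one like At3g26730, and none was called in 9. The widest set was the E2 like At2g36060, in which AK066799 rose while AK068060 and AK104965 read 0.14 ± 0.17 and 0.02 ± 0.14. In 1 set, the RING protein like At3g61460, a cDNA was called in each direction, AK071853 higher and AK100603 lower. One name can therefore cover cDNAs with unequal ratios, and a name such as TIR1 or ORE9 stands for its listed cDNAs alone. Some cDNAs of these sets were dim, such as AK102500, AK108851 and AK069668. The last of them read 0.09, but 0.22 with no offset and 0.35 from the processed signals. How much of a span comes from dimness was not tested. Best matches came from Arabidopsis for 81 members, from another plant for 32, from rice for 12, from an animal for 7 and from a fungus for 2. Of the 12 rice-named members 5 were higher and 0 were lower, and of the 72 tested Arabidopsis-like members 20 were higher and 4 lower. Among all probes 14.6% were higher and 10.1% lower.

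**Figure D5:**
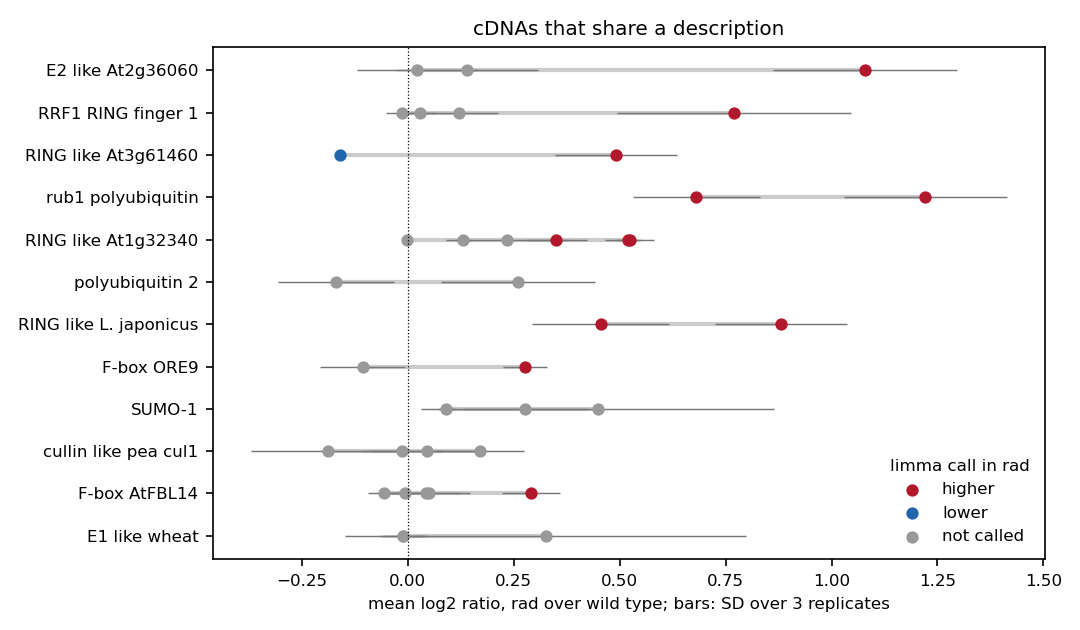
Mean log2 ratio of rad over wild type (horizontal axis) of cDNAs that share a description, for the 12 descriptions with the widest span. Points are cDNAs coloured by their limma call, with the SD over 3 replicates as thin bars, and grey lines span each set. The E2 set at the top holds 1 cDNA near 1 and 2 near 0, and the row for the RING protein like At3g61460 holds calls in both directions.

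Neighbouring parts of the pathway were read from lists of text patterns. Of 56 proteasome cDNAs 0 were higher and 8 lower (14.3% lower, against 10.1% of all probes), with a median of -0.07. Cdc20 and fizzy activate the anaphase-promoting complex, a large RING ligase of mitosis. Of the 4 cDNAs of that list 0 were higher and 2 lower (50% called, against 24.7% of all probes). These were a CDC20 (AK103675) at -0.73 ± 0.20 (adjusted p = 0.0102) and a p55cdc and fizzy homologue (AK102954) at -1.74 ± 0.16 (adjusted p = 0.00273). The complex's own subunits 11 (AK112010) and APC2 (AK068962) read 0.25 ± 0.20 and 0.03 ± 0.18 and did not pass. Of 6 armadillo repeat cDNAs, a family that includes U-box ligases, 2 were higher and 0 lower (33.3% called, against 24.7% of all probes). The rises were AK105835 (0.76 ± 0.21, adjusted p = 0.0100) and AK072816 (0.70 ± 0.07, adjusted p = 0.00426). These 2 share their description with AK072890, which read 0.01 ± 0.10. For shuttle factors and the p97 segregase 0 of 3 cDNAs were called by limma, with a valosin-containing protein (AK098980) at 0.19 ± 0.21 and a RAD23 homologue (AK073271) at 0.14 ± 0.03 (adjusted p = 0.0514). BTB proteins had 0 of 2 called by limma, with values of 0.10 ± 0.09 (AK100835) and -0.06 ± 0.05 (AK111324). In the list for the cullin modifier RUB1, 2 of 3 were higher, but these are the rub1 polyubiquitin cDNAs already given, and the RUB1 conjugating enzyme (AK073821) read 0.13 ± 0.09. The autophagy pattern took in 7 tested cDNAs, some by a resembling name only. It had 2 higher and 0 lower (28.6% called, against 24.7% of all probes). One of the 2 rises, like APG5 of Arabidopsis (AK063557), was 0.40 ± 0.14 (adjusted p = 0.0184), and the other is of a cDNA described as a transmembrane protein.

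Of the 41 called members 38 had the same sign on all 6 arrays. The exceptions were AK103631, AK100603 and the kinase AK112043. Under 14 alternatives that kept every replicate, 31 of the 41 were called in the same direction each time they were tested, and 11 were so under all 17, which include the omission of each replicate. Among these 11 were OsUBC5b (AK066232), the ubiquitin-like AK058725, the COP9 subunit AK068389 and the rub1 polyubiquitin AK061956, which has no value without saturated probes. The others were AK066799 and AK105320, described as conjugating enzymes, AK072668, described as an activating enzyme, and the RING proteins AK073370, AK073728, AK063313 and AK058695. Of the 11, AK105320 was lower in rad and the other 10 were higher.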

How the data were processed

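Rad and wild-type coleoptile RNA was measured on 6 two-colour arrays, 3 replicates in both dye orientations. Per the file headers, the Agilent arrays were read with Feature Extraction, and the deposited intensity values are the mean brightness of each spot and the median of its local background, not normalized. Per the file headers, the processed intensity values had a background surface subtracted and were dye-normalized. The authors' deposited value table holds log10 ratios of rad over wild type on every array, which matched the scanner's ratios, turned that way, to within 5e-06, with column medians of -0.000509 to 0. Flags per spot, defined per the file headers, served as filters.

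Log ratios came from limma 3.58.1 in R 4.3.3: normexp with an offset of 50, loess with control spots at weight 0, and control spots left out. The filter asked that rad or wild type be flagged well above background on 4 or more of the 6 arrays, which 20213 of 21495 probes met. Another 266 had an outlier spot, so that 19947 were tested. Ratios were turned to rad over wild type, both arrays of a replicate were averaged, and the mean of 3 replicates was tested against 0 by lmFit and eBayes, two-sided and with 4.26 degrees of freedom in all. A call is an adjusted p (Benjamini-Hochberg) below 0.05. Normalized intensities per genotype came from the same ratios after A-quantile scaling between arrays. They are comparable within a probe only. Precision is limited by how few arrays there are. The fit was tested on simulated data.

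Same-numbered arrays belong together by their titles, and their deviations from the mean of their orientation correlated at 0.805, 0.663 and 0.840 in replicates 1, 2 and 3. Ratios correlated across genes at 0.885 between replicates 1 and 2, 0.755 between 1 and 3 and 0.840 between 2 and 3.

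The members, the role lists and the alternatives were chosen with earlier results of these data known. Named are all tested members of roles with at most 6, the largest called rises and falls of the other roles, and members with a hormone, light or cell-cycle name, called or not. One of these, an E2 cDNA, is counted but not reported here. Further members were named after their values were seen, to account for each group. The kinases were set apart from the COP9 group after their descriptions were read. The RefSeq gene table of assembly GCF_034140825.1 held 0 of the probes' accessions and 3 of 4 rice symbols looked up, so positions are not given.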

Additional observations from a re-analysis of the deposited data

How the results depend on the processing

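The counts and the median were recomputed under 17 other settings, with 1 probe per description, and without the kinase cDNAs, the last chosen after seeing the data. Leaving out a replicate moved the members called higher to between 12 and 34, those called lower to between 1 and 7 and all probes called to between 1184 and 4573, against 35, 6 and 4929 with all replicates. Fewer replicates were fitted there, and no other alternative moved a count by more than 1.5 times. Fitting all 6 arrays under a replicate block gave 41 members higher and 9 lower, and with a dye term added 41 and 6. With 1 probe per description 27 of 84 were higher and 4 lower. The median ratio of the members was 0.06. It was 0.0762 by normexp with no offset, and 0.0851 both from the scanner's processed signals and from the deposited value table, and the cause was not tested. Among the named cDNAs that were called, AK103631 alone changed sign, at -0.0167 on the arrays with rad in Cy5 (adjusted p = 0.832), and the cause was not tested. Uncalled named cDNAs with ratios near 0 also crossed 0 in places. So did AK106674, with a mean of -0.22 and a range of -0.39 to 0.06 over the settings. Of the 32 cDNAs named by rule and called, 18 lost their call without replicate 1, 20 without replicate 2 and 5 without replicate 3. A block for slide or scan was not run, because each slide held 1 array and all were scanned in one session. Signal over background limits dim probes, such as AK105320, AK100603 and AK063826.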
